A study of Mus musculus with 8 samples.

Results

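The genes described here are 10 genes of lipid-associated macrophages, the phagocytes that gather in steatotic liver: Trem2, Gpnmb, Cd9, Spp1, Lpl, Itgax, Cd63, Ctsd, Lgals3 and Atp6v0d2. They were taken from the count table by gene symbol, and all 10 were among its 17810 genes. They were measured by RNA-Seq of whole liver in 4 WT mice and 4 HKO mice, all male. Of the 10, 8 had enough counts to be tested. Only Gpnmb was called different between the genotypes, and it was lower in HKO livers. Over all genes tested, 3.44% were called lower and 1.71% higher. Gpnmb had enough counts to be tested only through the WT livers.

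Lipid-associated macrophages are known to form in adipose tissue, atherosclerotic plaques and fatty liver, where they take up lipid from dying or overloaded cells. Their program depends on TREM2, a surface receptor for lipids that signals through the adaptor TYROBP, and includes glycoprotein GPNMB, tetraspanins, secreted osteopontin and galectin-3, lipoprotein lipase, and lysosomal proteins that break down the cargo. Several of these genes are also expressed outside macrophages: cholangiocytes make osteopontin, and hepatocytes and most other liver cells make cathepsin D and tetraspanins. In whole liver, fewer cells of a type and less RNA per cell cannot be told apart.

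The WT mice were littermates of the HKO mice. HKO mice combined miR-33 loxP/loxP alleles with a Cre recombinase driven by the albumin promoter (AlbCRE), so that miR-33 was deleted in hepatocytes, while macrophages were not the targeted cells. Whether the WT littermates carried the floxed alleles or Cre alone was not given in the sources used here, nor was the strain of either group. Both groups started CD-HFD, a choline-deficient high-fat diet, at 8 weeks of age and stayed on it for 3 months, to an age of 5 months. The livers were perfused with PBS before freezing. Total counts ran from 12174339 to 18735785 per liver. miR-33 itself was not listed in the count table, so its deletion was not checked here. Alb, the hepatocyte marker of the tissue, was at 74866 ± 14797 CPM (SD, n = 4) in WT and 73439.9 ± 21127 CPM in HKO livers, where CPM is the count per 1000000 reads of the TMM-scaled library size. HKO replicate 2 stood apart in markers of other cell types: Krt19, Epcam and Muc1, which mark biliary and other epithelia, were at 16.9, 16.5 and 22.4 CPM there, and at most 1.07, 1.02 and 0.596 CPM in the other 7 livers. Its summed macrophage and Kupffer cell markers were the lowest of the HKO livers. Results that rest on this liver are given with and without it.

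A part of the microRNA deleted in HKO hepatocytes is shown first, since the deletion defines the comparison. It is the mature 5' arm of miR-33 (RefSeq, GRCm38.p6, chr15:82198127-82198147, plus strand), with the seed, bases 2 to 8, in capitals. The 3' arm is not shown.
mmu-miR-33-5p: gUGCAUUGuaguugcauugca

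The 250 bases before the RefSeq start site are shown for 3 members, Gpnmb and Ctsd because these were the members whose genotypes did not overlap, and Trem2 because it names the program. All are written 5' to 3' on the strand of the gene, in build GRCm38.p6, with motif matches in capitals. The Gpnmb window is chr6:49036268-49036517 (plus strand), that of Ctsd is chr7:142387828-142388077 (minus strand), and that of Trem2 is chr17:48346151-48346400 (plus strand).
Gpnmb: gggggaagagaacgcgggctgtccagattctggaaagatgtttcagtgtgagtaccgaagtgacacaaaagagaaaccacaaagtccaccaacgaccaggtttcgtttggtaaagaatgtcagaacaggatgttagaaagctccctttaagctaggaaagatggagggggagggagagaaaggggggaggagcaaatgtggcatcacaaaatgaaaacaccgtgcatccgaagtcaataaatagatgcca
Ctsd: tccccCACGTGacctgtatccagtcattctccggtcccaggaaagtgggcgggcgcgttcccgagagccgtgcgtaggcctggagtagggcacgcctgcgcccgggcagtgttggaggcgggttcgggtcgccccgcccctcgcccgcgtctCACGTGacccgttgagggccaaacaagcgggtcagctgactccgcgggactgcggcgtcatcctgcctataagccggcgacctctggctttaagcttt
Trem2: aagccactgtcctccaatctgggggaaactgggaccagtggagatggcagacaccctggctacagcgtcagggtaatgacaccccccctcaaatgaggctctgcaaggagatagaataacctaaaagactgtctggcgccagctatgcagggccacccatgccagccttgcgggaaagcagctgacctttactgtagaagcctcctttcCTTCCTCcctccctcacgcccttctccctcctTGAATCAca

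Motifs were searched on both strands, from 250 bases before to 50 bases after the start site, in the 8 members with a RefSeq promoter, and Lpl and Atp6v0d2 were not searched. CACGTG, the E-box core of the CLEAR element bound by TFEB and its relatives at lysosomal genes, occurred in the Ctsd promoter at positions -245 and -98 from the start site and in no other member. The share of all 32851 promoters with CACGTG was 7.15%. TGANTCA, the AP-1 site, occurred in Gpnmb at position 9 after the start, in Trem2 at -9 and in Itgax at -56, against 7.81% of all promoters. The PU.1 core GAGGAAG was found in Trem2 at -41, in Cd63 at -60 and in Spp1 at -113, against 13.6% of all promoters. CATGTG, the E-box form preferred by MITF, was found in Cd9 at -38, against 14.2% of all promoters. TTGCNNAA, the C/EBP site, was found in Trem2 at position 23 after the start and in the second Spp1 promoter at -156, against 10.8% of all promoters. TATAAA, the letters of a TATA box, occurred in Spp1 at -211, against 13.6% of all promoters, in a search that did not ask for a given position. None of the 6 motifs was found in the Lgals3 window. No 2 of these motifs overlapped in a member. These matches are letters in a window, and binding was not measured.

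Gpnmb encodes a transmembrane glycoprotein that is induced in lipid-laden and lysosomally stressed macrophages. It was the member with the largest difference between genotypes, and fell to near the detection limit in HKO livers. The gene lies at chr6:49036518-49058182 (GRCm38, plus strand), and its longest coding transcript has 11 exons. Its counts were 11, 11, 30 and 21 in WT replicates 1 to 4, and 2, 0, 1 and 2 in HKO replicates 1 to 4. In CPM these were 0.909, 0.767, 1.49 and 1.38 in WT, and 0.135, 0, 0.0563 and 0.170 in HKO livers. Every WT liver was above every HKO liver, and all 4 HKO livers were under 3 counts, the number that a count of 0 allows. Summed over livers, 73 WT and 5 HKO counts gave a level 13.5-fold higher in WT, with an exact 95% interval of 5.55 to 43.0 that covers counting error only. The edgeR quasi-likelihood log2 fold change was -3.60 ± 0.58 (SE), with an adjusted p of 0.00551 over 12395 genes. Gpnmb passed the expression filter only through the WT livers. Of all genes tested, 3.44% were called lower in HKO and 1.71% higher.

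The summed macrophage markers overlapped between the genotypes. As a percent of the summed CPM of 18 general macrophage markers, Gpnmb was at 0.421, 0.226, 0.408 and 0.576% in WT replicates 1 to 4, and at 0.0369, 0, 0.0153 and 0.0493% in HKO replicates 1 to 4. The macrophage sums varied less between livers than Gpnmb differed between genotypes, so the lack of overlap on this scale follows from the CPM values and is no further evidence. Gpnmb was called lower in each of the 8 fits that left out 1 liver, with log2 fold changes from -3.97 to -3.25, and in the fit without HKO replicate 2 the value was -3.25 with an adjusted p of 0.0115 (edgeR). Over all alternatives that tested it, the adjusted p of Gpnmb ran from 0.000214 to 0.0201.

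**Figure D1:**
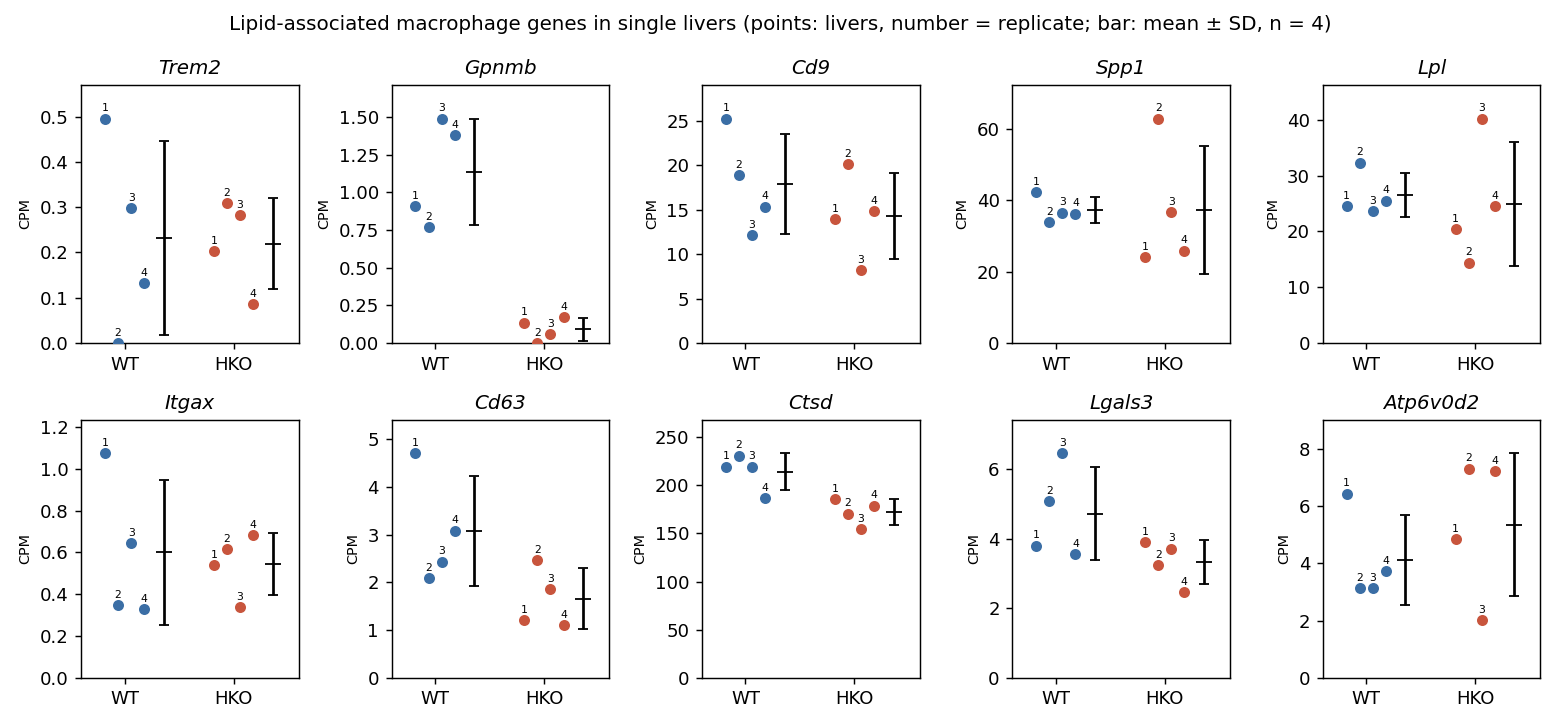
CPM of each of the 10 members (vertical axes, linear from 0) in the 4 WT and 4 HKO livers, with the replicate number beside each point and a bar for mean ± SD. Gpnmb lay between 0.767 and 1.49 CPM in WT and between 0 and 0.170 CPM in HKO livers, Ctsd also did not overlap, and the HKO points of Spp1 were spread by replicate 2 at 63.0 CPM.

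Trem2 and Itgax are the surface receptors of the program, a lipid receptor and the integrin alpha chain CD11c of recruited macrophages and dendritic cells. Both were too low in whole liver to pass the expression filter, so neither was tested. Trem2 (chr17:48346401-48352276, plus strand) had 6, 0, 6 and 2 counts in WT replicates 1 to 4 and 3, 4, 5 and 1 counts in HKO replicates 1 to 4. The livers of both genotypes ran from near 0 to a few counts, with complete overlap. The summed counts, 14 in WT and 13 in HKO, gave a WT to HKO ratio of 0.999, with an exact 95% interval of 0.436 to 2.31. That interval covers counting error only and leaves out the spread between livers. With that spread, an edgeR fit without the filter gave a 95% interval reaching 1.86 to either side of its log2 fold change of -0.03. Differences within that wider interval were not resolved. Itgax (chr7:128129550-128150657, plus strand) had 13, 5, 13 and 5 counts in WT replicates 1 to 4 and 8, 8, 6 and 8 counts in HKO replicates 1 to 4. Its WT to HKO ratio was 1.11, with an interval of 0.667 to 1.87. In an edgeR fit without the filter, the adjusted p was 0.992 for Trem2 and 0.933 for Itgax.

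Of the partners of TREM2, most passed the expression filter that the receptor missed. Tyrobp, its signalling adaptor, was at 2.39, 5.79, 4.27 and 3.61 CPM in WT replicates 1 to 4 and at 2.36, 2.39, 4.67 and 4.08 CPM in HKO replicates 1 to 4. The groups overlapped, and the log2 fold change was -0.25 ± 0.30 (SE, edgeR adjusted p = 0.714). Of 12 listed adaptor and signalling genes, which include the kinase Syk and the sheddases Adam10 and Adam17, 10 were tested, 0 were called lower and 1 was called higher, and Hcst and Lat2, named after their counts were seen, were too low to test. That gene was Itpr2, a calcium release channel of the endoplasmic reticulum that hepatocytes also express, at 42.5 ± 3.04 CPM in the WT group and 53.2 ± 3.95 CPM in the HKO group, with a log2 fold change of 0.32 ± 0.08 (edgeR adjusted p = 0.0476). Without HKO replicate 2 no gene of this list was called. With all livers, edgeR called 1.71% of all genes tested higher. The median log2 fold change of the list was 0.06, and that of all genes tested was 0.01.

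Ctsd, the aspartic protease of the lysosome, was the most abundant member and the only other member whose genotypes did not overlap. It lies at chr7:142375910-142387827 on the minus strand. Its level was 219.6, 231, 219.5 and 186.4 CPM in WT replicates 1 to 4, and 185.4, 171, 154.7 and 178.9 CPM in HKO replicates 1 to 4. WT replicate 4 was only just above HKO replicate 1, the nearest pair. The log2 fold change was -0.31 ± 0.09 (SE), a fold of 0.805 with a 95% interval of 0.702 to 0.924, and the adjusted p of 0.0742 missed the threshold of 0.05 (edgeR). DESeq2 gave an adjusted p of 0.0267, total count scaling gave 0.0410 and the fit without WT replicate 4 gave 0.0339, so the call turned on the method. Over all its alternatives the adjusted p ran from 0.0267 to 0.232. Among all genes tested, 7.24% had every HKO liver below every WT liver, and 5.32% had every HKO liver above, so 2 such members lower and 0 higher of 10 are given as a description. Relative to the macrophage markers, Ctsd did overlap, at 60.1 to 102% in WT and 42.1 to 86.9% in HKO livers. Only HKO replicate 2, the liver with the lowest macrophage sum, reached the WT range. HKO replicates 1, 3 and 4 were at 50.7, 42.1 and 51.8%, below every WT liver. This ratio moves with the macrophage sum, since WT replicates 1 and 3 had Ctsd at 219.6 and 219.5 CPM but ratios of 102 and 60.1%. It is therefore given as a description and is no further evidence. GENCODE places the gene Gm49369 over Ctsd on the same strand, and reads from it could not be told apart from those of Ctsd.

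Cathepsin D works in compartments that the vacuolar ATPase acidifies, and Atp6v0d2 encodes the macrophage and osteoclast form of one of its subunits. Atp6v0d2 (chr4:19876838-19922566, minus strand) was at 6.44, 3.14, 3.13 and 3.74 CPM in WT replicates 1 to 4 and at 4.86, 7.32, 2.03 and 7.23 CPM in HKO replicates 1 to 4. The highest and the lowest liver were both HKO, and the log2 fold change was 0.38 ± 0.40 (SE, edgeR adjusted p = 0.671), a fold of 1.30 with a 95% interval of 0.699 to 2.42. With 1 liver left out it ran from 0.18 (HKO replicate 2) to 0.67 (WT replicate 1 or HKO replicate 3), and it was 0.20 without HKO replicate 4. Atp6v0d1, the form present in most cells, had a level per kilobase of transcript of 28.1 CPM in the WT group and 27.5 CPM in the HKO group, against 1.62 and 2.11 CPM for Atp6v0d2. Its log2 fold change was -0.03 ± 0.08 (edgeR adjusted p = 0.888). Of 17 vacuolar ATPase genes tested, edgeR called 0 and the other tools also called 0, with 1 at an unadjusted p under 0.05, and the list ran only from -0.18 to 0.28 on the log2 scale.

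Among 34 lysosomal genes, 2 were called lower and 0 higher by edgeR, with 6 lower and 2 higher at an unadjusted p under 0.05, and DESeq2 called 2 lower and 1 higher. Over all genes tested, edgeR called 3.44% lower and 1.71% higher, and DESeq2 5.09% and 3.11%. At an unadjusted p under 0.05, 10.6% of all genes tested were lower and 8.99% higher. Lipa, the acid lipase that hydrolyses cholesteryl esters and triglycerides in lysosomes, was at 380 ± 61.4 CPM in the WT group and 243 ± 33.8 CPM in the HKO group (log2 fold change -0.64 ± 0.13, edgeR adjusted p = 0.0171). Psap, the precursor of the saposins that activate sphingolipid hydrolases, was at 345 ± 35.3 CPM in the WT group and 246 ± 11.995 CPM in the HKO group (log2 fold change -0.49 ± 0.09, edgeR adjusted p = 0.0120). The transcription factors of the lysosomal program gave log2 fold changes of 0.08 ± 0.22 for Tfeb, -0.16 ± 0.12 for Tfe3 and 0.08 ± 0.17 for Mitf, and none was called. The median of the lysosomal list was -0.06.

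**Figure D2:**
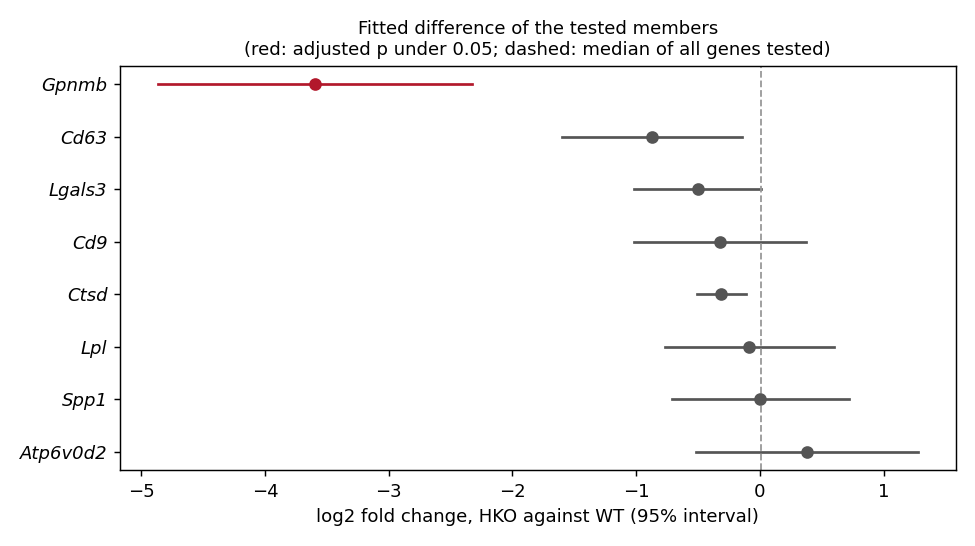
Fitted log2 fold change of HKO against WT (horizontal axis) with its 95% interval for the 8 members that were tested, with the median of all genes as a dashed line. Gpnmb at -3.60 is the only member past the adjusted threshold, and the narrow interval of Ctsd, -0.51 to -0.11, contrasts with the wide one of Atp6v0d2, -0.52 to 1.27.

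Cd9 and Cd63 are tetraspanins, membrane proteins of the cell surface and of late endosomes and exosomes. Cd9 (chr6:125460266-125494760, minus strand) was at 25.3, 18.9, 12.1 and 15.4 CPM in WT replicates 1 to 4 and at 13.96, 20.1, 8.22 and 14.9 CPM in HKO replicates 1 to 4. The genotypes overlapped through most of their range, and the log2 fold change was -0.32 ± 0.30 (SE, edgeR adjusted p = 0.628), a fold of 0.798 with a 95% interval of 0.494 to 1.29. Single livers moved this value, to -0.12 without WT replicate 1 or without HKO replicate 3 and to -0.54 without HKO replicate 2, and the gene was called in none of these fits. GENCODE lists 2 genes on the opposite strand over Cd9, whose reads could not be told apart from it if strand was not used.

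Cd63 (chr10:128908919-128912818, plus strand) had low counts, 57, 30, 49 and 47 in WT replicates 1 to 4 and 18, 32, 33 and 13 in HKO replicates 1 to 4. In CPM these were 4.71, 2.09, 2.44 and 3.09 in WT and 1.21, 2.47, 1.86 and 1.11 in HKO livers, so that only HKO replicate 2 reached into the WT range. The log2 fold change was -0.87 ± 0.33 (SE), with an unadjusted p of 0.0230 and an adjusted p of 0.173 (edgeR), which did not pass. Without HKO replicate 2 it was -1.11 with an adjusted p of 0.106 (edgeR), and the genotypes then did not overlap. Fewer livers make a lack of overlap easier to meet, and its share over all genes was not computed for that fit. Over all alternatives its adjusted p ran from 0.106 to 0.418. Its 95% interval ran from 0.330-fold to 0.906-fold.

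Of the tetraspanins closest to these members, Cd81 was called lower in HKO livers. Cd81, a tetraspanin that partners with CD9, was at 217, 229, 186 and 215 CPM in WT replicates 1 to 4 and at 132, 142, 149 and 143.4 CPM in HKO replicates 1 to 4. No livers overlapped, and Cd81 fell by 0.58 ± 0.08 on the log2 scale (edgeR adjusted p = 0.00316). Among 18 tested relatives of the members, 4 were called lower and 0 higher by edgeR, with 5 lower and 2 higher at an unadjusted p under 0.05, and DESeq2 called 4 lower and 1 higher. Without HKO replicate 2, edgeR called 3 relatives lower and 0 higher, and 481 of 12534 genes tested in either direction. With all livers, edgeR called 3.44% of all genes tested lower and 1.71% higher, and DESeq2 5.09% and 3.11%. At an unadjusted p under 0.05, 10.6% of all genes tested were lower and 8.99% higher.

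Lgals3 and Spp1 encode secreted proteins, galectin-3, which binds galactosides on damaged cells and lysosomes, and osteopontin, a ligand of integrins and CD44. Lgals3 (chr14:47373860-47386167, plus strand) was at 3.80, 5.09, 6.46 and 3.55 CPM in WT replicates 1 to 4 and at 3.91, 3.24, 3.72 and 2.47 CPM in HKO replicates 1 to 4. All 4 HKO livers were below WT replicates 2 and 3 but overlapped with WT replicates 1 and 4, and the log2 fold change was -0.50 ± 0.24 (SE, edgeR adjusted p = 0.264), a fold of 0.705 with a 95% interval of 0.495 to 1.01. Without WT replicate 3 the log2 fold change was -0.31. Lgals1, galectin-1, was a relative with a large difference. It was at 59.7, 70.1, 47.3 and 57.5 CPM in WT replicates 1 to 4 and at 13.8, 15.1, 11.1 and 7.15 CPM in HKO replicates 1 to 4. Lgals1 fell by 2.31 ± 0.21 on the log2 scale (edgeR adjusted p = 0.000914), and per kilobase it was at 73.3 CPM in the WT group and 14.8 CPM in the HKO group, against 3.33 and 2.35 CPM for Lgals3. Lgals8, named as the remaining relative that was called after the values were seen, fell by 0.30 ± 0.08 (edgeR adjusted p = 0.0452). Without HKO replicate 2 Lgals8 was not called (edgeR adjusted p = 0.0956).

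Spp1 (chr5:104435111-104441053, plus strand) was at 42.5, 34.0, 36.6 and 36.3 CPM in WT replicates 1 to 4 and at 24.004, 63.0, 36.7 and 25.9 CPM in HKO replicates 1 to 4. The WT livers were close together, with a coefficient of variation of 9.67%, while the HKO livers spread over 48.0% and held both the highest and the lowest liver. The log2 fold change was 0.00 ± 0.30 (SE, edgeR adjusted p = 0.997), with a 95% interval from 0.612-fold to 1.64-fold. Without HKO replicate 2 the log2 fold change was -0.37 with an adjusted p of 0.213, so 1 liver held the mean of the HKO group up. The sign of a value this close to 0 also turned in other fits, 8 of 16 alternatives in all, whose adjusted p ran from 0.213 to 0.999. That liver was also the one with the high epithelial markers: Epcam was at 16.5 CPM there and between 0.328 and 1.02 CPM in the others. Their part in the Spp1 value was not tested. GENCODE places Gm42793, an entry still to be tested experimentally, over Spp1 on the same strand.

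Of the receptors of osteopontin, Cd44 was also highest in HKO replicate 2, at 10.3, 17.99, 16.1 and 11.8 CPM in WT replicates 1 to 4 and at 14.7, 45.0, 13.5 and 14.1 CPM in HKO replicates 1 to 4. Its log2 fold change was 0.63 ± 0.47 (SE, edgeR adjusted p = 0.538), and without HKO replicate 2 it was 0.0010 ± 0.18 (edgeR adjusted p = 0.999). Of 9 osteopontin receptors tested, 1 was called lower and 0 higher, against 3.44% lower and 1.71% higher of all genes tested. This was Itga4, an integrin alpha chain of leukocytes, at 17.4 ± 3.71 CPM in the WT group and 9.88 ± 1.78 CPM in the HKO group, which fell by 0.82 ± 0.17 on the log2 scale (edgeR adjusted p = 0.0197). The median of the list was 0.00.

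**Figure D3:**
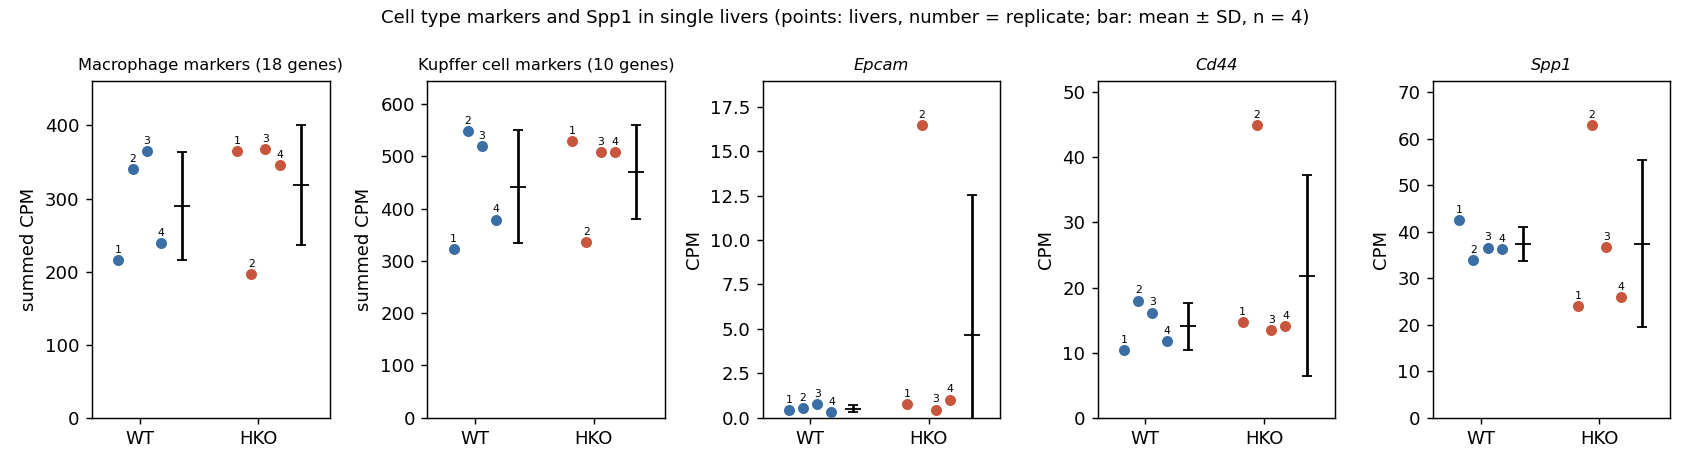
Summed CPM of the macrophage and Kupffer cell markers and CPM of Epcam, Cd44 and Spp1 (vertical axes, linear from 0, with SD bars cut at 0) in the 4 WT and 4 HKO livers, with replicate numbers. HKO replicate 2 had the lowest macrophage sum, 196.4, and the highest Epcam, Cd44 and Spp1 values, 16.5, 45.0 and 63.0 CPM.

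Lpl encodes lipoprotein lipase, which releases fatty acids from circulating triglyceride-rich particles and is little expressed by healthy adult hepatocytes. Lpl (chr8:68880555-68906932, plus strand) was at 24.6, 32.4, 23.7 and 25.5 CPM in WT replicates 1 to 4 and at 20.4, 14.4, 40.3 and 24.6 CPM in HKO replicates 1 to 4. The HKO livers again spread on both sides of WT, with coefficients of variation of 44.3% against 14.9%, and here replicate 3 was the highest and replicate 2 the lowest. The log2 fold change was -0.08 ± 0.29 (SE, edgeR adjusted p = 0.920), a fold of 0.943 with a 95% interval of 0.589 to 1.51. Without HKO replicate 3 it was -0.42 with an adjusted p of 0.256, and without HKO replicate 2 it was 0.10. Over all alternatives the adjusted p of Lpl ran from 0.256 to 0.998.

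Among 13 partners of the lipase, edgeR called 2 lower and 0 higher, against 3.44% and 1.71% of all genes tested. DESeq2 called 3 partners of the lipase lower and 1 higher, against 5.09% and 3.11% of all genes tested. Apoc2, its obligate apolipoprotein cofactor, was at 134 ± 12.3 CPM in the WT group and 73.01 ± 16.9 CPM in the HKO group and fell by 0.87 ± 0.15 on the log2 scale (edgeR adjusted p = 0.00946). Gpihbp1, the endothelial anchor of the enzyme, gave 0.33 ± 0.40 (edgeR adjusted p = 0.721). Of the other lipases, Lipg, the endothelial lipase, was at 20.4 ± 5.15 CPM in the WT group and 10.1 ± 2.72 CPM in the HKO group and fell by 1.01 ± 0.22 (edgeR adjusted p = 0.0302). Without HKO replicate 2 Lipg was not called, with a log2 fold change of -0.98 and an adjusted p of 0.0760 (edgeR). Lipc, the hepatic lipase of hepatocytes, was at 91.7 ± 10.4 CPM in the WT group and 131.02 ± 29.5 CPM in the HKO group, with a log2 fold change of 0.51 ± 0.15 that did not pass (edgeR adjusted p = 0.0774).

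Other genes that mark the lipid-associated state, which are expressed in other liver cells too, included several that were lower in HKO livers. Of 24 such companion genes, all tested, 5 were called lower and 0 higher by edgeR, against 3.44% and 1.71% of all genes tested. DESeq2 called 7 of these companion genes lower and 1 higher, against 5.09% and 3.11% of all genes tested. By limma-voom 4 were called lower and 0 higher, against 3.25% and 1.61%. The 5 called by edgeR were the fatty acid transporter Cd36, the lipid droplet coat protein Plin2, the phospholipid-binding protein Anxa5, the lysosomal lipase Lipa described above, and Nceh1. Nceh1, a cholesteryl ester hydrolase, is named here although it was not among the 3 largest. Cd36 was at 441 ± 81.9 CPM in the WT group and 88.2 ± 34.5 CPM in the HKO group, a log2 fold change of -2.32 ± 0.34 (edgeR adjusted p = 0.0142). Plin2 fell by 1.36 ± 0.14 (edgeR adjusted p = 0.000640) and Anxa5 by 1.33 ± 0.17 (edgeR adjusted p = 0.00288). Nceh1 fell by 0.53 ± 0.13 (edgeR adjusted p = 0.0442). These genes are also expressed by hepatocytes, the cells in which miR-33 was deleted. The median log2 fold change of the companion list was -0.22. Without HKO replicate 2, edgeR called 4 genes of this list lower, and Nceh1 was not called (adjusted p = 0.0780). That fit called 481 of 12534 genes tested in either direction.

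The marker genes of the macrophages themselves did not separate the genotypes. Of 18 general macrophage markers tested, 0 were called by edgeR, DESeq2 or limma-voom, and 0 had an unadjusted p under 0.05. The log2 fold changes ran from -0.42 to 0.58 with a median of 0.05, and were 0.17 ± 0.54 for Adgre1 (the F4/80 antigen), -0.03 ± 0.38 for Cd68 and -0.08 ± 0.46 for Csf1r, the receptor for macrophage colony-stimulating factor. Their summed level was 215.7, 340.2, 364.9 and 239.2 CPM in WT replicates 1 to 4 and 365.2, 196.4, 367.5 and 345.3 CPM in HKO replicates 1 to 4. WT replicates 1 and 4 and HKO replicate 2 were low, and the genotypes overlapped. The 10 markers of resident Kupffer cells gave 0 calls with each of these tools, also with 0 at an unadjusted p under 0.05, with 0.19 ± 0.47 for Clec4f and -0.01 ± 0.54 for Timd4. Leaving out HKO replicate 2 moved all 5 values up, and those of Cd68, Csf1r and Timd4 changed sign. They were then 0.46 ± 0.41 for Adgre1, 0.25 ± 0.24 for Cd68 and 0.18 ± 0.35 for Csf1r. Clec4f was at 0.45 ± 0.38 and Timd4 at 0.28 ± 0.41, and edgeR called 0 genes of either list. Of 9 tested markers of recruited monocytes and dendritic cells, 1 was called lower and 0 higher, against 3.44% lower of all genes tested. This was Ccr2, the chemokine receptor of recruited monocytes, at 5.53, 4.74, 5.27 and 5.39 CPM in WT replicates 1 to 4 and at 2.70, 3.70, 3.43 and 2.04 CPM in HKO replicates 1 to 4. It fell by 0.81 ± 0.20 on the log2 scale (edgeR adjusted p = 0.0416). Of the 9 tested markers of this list, 4 had a log2 fold change below 0 and 5 above, with a median of 0.04. The summed level of the 14 listed markers was 44.9 ± 6.88 CPM in the WT group and 44.4 ± 8.10 CPM in the HKO group.

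**Figure D4:**
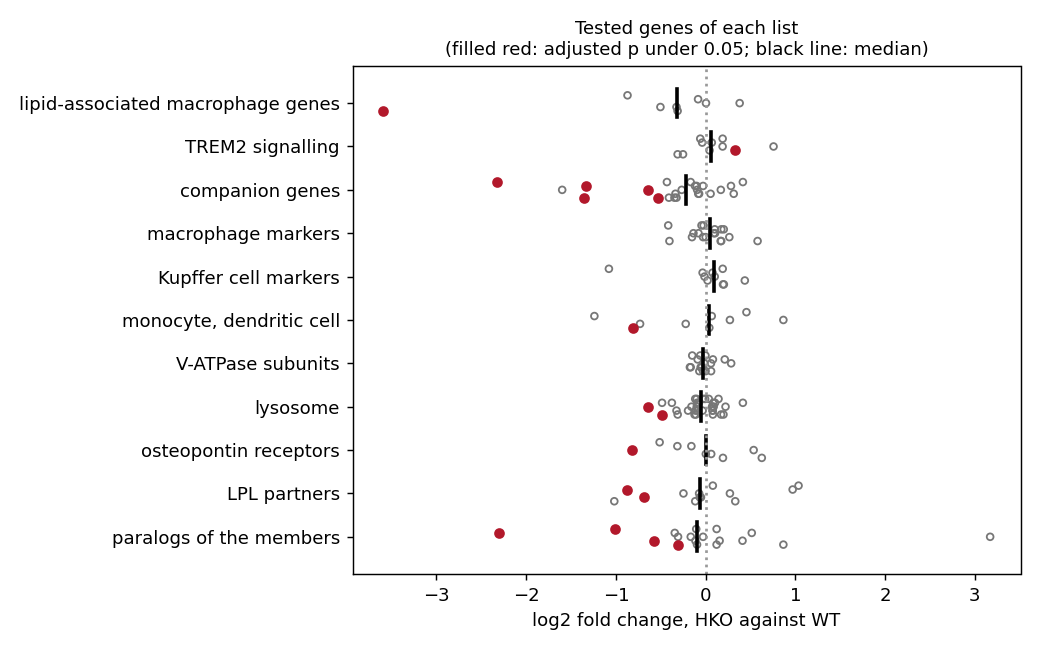
Log2 fold change of HKO against WT (horizontal axis) for each tested gene of 11 lists (rows), with genes called by edgeR filled in red and the median as a black line. The macrophage and Kupffer cell markers and the V-ATPase subunits hold no called gene, the companion genes hold 5, and Gpnmb is the called gene of the first row.

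Over all 10 members, 1 was called lower, 0 were called higher, 7 were tested and not called, and 2 were not tested. At an unadjusted p under 0.05, 3 of the 8 tested were lower and 0 higher, and DESeq2 called 2 lower and 0 higher, limma-voom 1 lower and 0 higher. Of all genes tested, 10.6% were lower and 8.99% higher at an unadjusted p under 0.05, DESeq2 called 5.09% lower and 3.11% higher, and limma-voom called 3.25% lower and 1.61% higher. The 8 tested members had a median log2 fold change of -0.32, and all 10 in a fit without the filter had a median of -0.22, against 0.01 for all genes tested. Leaving out WT replicate 1 moved the median of the tested members to -0.21, and leaving out HKO replicate 2 moved it to -0.43. The filter passes a gene that is high in 1 genotype only, as it did for Gpnmb, so these medians are given as descriptions.

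The members covered a wide range of levels. Per kilobase of their longest coding transcript, the mean level in WT and HKO livers was 100.7 and 81.1 CPM for Ctsd, 25.6 and 25.7 for Spp1, 14.6 and 11.6 for Cd9, 6.45 and 6.06 for Lpl, and 3.33 and 2.35 for Lgals3. Lower levels were found for Cd63 at 2.90 and 1.56, Atp6v0d2 at 1.62 and 2.11, Gpnmb at 0.307 and 0.0244, Trem2 at 0.213 and 0.202, and Itgax at 0.148 and 0.134 CPM per kilobase. The members were then ranked within each genotype by its own means, so the HKO order differed from the WT order given above. Of the 9 pairs of neighbours in each ranking, 5 did not overlap between the livers of that genotype. In WT livers the pairs that overlapped were Lgals3 with Cd63, Cd63 with Atp6v0d2, Gpnmb with Trem2, and Trem2 with Itgax. In HKO livers Gpnmb was the lowest member, and its livers lay below those of Itgax. The livers of a genotype agreed best for Ctsd, with coefficients of variation of 8.98% in WT and 7.69% in HKO, and spread most for Trem2 in WT, with 92.7%, and for Gpnmb in HKO, with 84.97%.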

How the data were processed

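Mouse liver RNA-Seq was analysed from 4 WT and 4 HKO mice. The authors deposited estimated counts per gene, made with STAR and the Partek E/M model per the labels, without normalization. Of these values 80.6% were whole numbers, and 0 columns were left unmapped. The labels name both rRNA depletion and a small RNA kit, so the type of library is uncertain. Strand use in counting was not given in the sources used here. Listed ends were 1 base past RefSeq ends and were reduced by 1, after which 48.7% of the 17789 matched genes, and 8 of the 10 members, had the RefSeq GRCm38 start and end.

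Counts were rounded and tested with edgeR 4.0.16 (R 4.3.3): TMM scaling, filter by minimum count 10, robust quasi-likelihood test, and Benjamini-Hochberg adjustment over 12395 genes, with the threshold at 0.05. The SE of a log2 fold change is its absolute size over the square root of F. Levels per kilobase use the longest coding GENCODE vM21 transcript with ends within 1000 bases of the listed gene. Count ratios have exact conditional binomial intervals (Python 3.11.15, scipy 1.17.1), which cover counting error only. On simulated data with 12289 genes, edgeR recovered 85.4% of changes of 1 and 100% of changes of 2 on the log2 scale, with 3.23% false calls. These rates are not broken down by level or spread, so they give no rate for single members. Precision for the low members is limited by depth: 3 counts were 0.149 to 0.255 CPM per liver.

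The 10 members and all lists were chosen with earlier results of these data known. Named were all members, a fixed set of lineage and partner genes, and from each list up to 3 called genes with the largest change and a mean of at least 1 CPM. The values of 1 called gene are not reported here. Genes most like Trem2 were not named, because Trem2 had at most 6 counts per liver. Other tools (limma-voom with limma 3.58.1, and DESeq2 1.42.0) and other settings were tried: scaling by upper quartile, by total count or by RLE, no filter, at least 10 counts in every liver, a fold change above 1.5, the replicate number as a block, and each liver left out. The descriptions of the WT samples repeat 1 animal number, while their titles and the column headers give a different number for each. The titles were followed, and each sample was taken as 1 mouse, so p-values measure the spread between these samples. Column headers number the HKO libraries before the WT libraries, so library order and genotype cannot be told apart.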

Additional observations from a re-analysis of the deposited data

Results flagged for a closer look

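HKO replicate 2 lay far from the other HKO livers in 3 marker sums. Its summed CPM of 18 general macrophage markers was 196.4, against 345.3 to 367.5 in the other HKO livers. Its resident Kupffer cell markers summed to 336.3 CPM, against 507.3 to 528.5 CPM. Its cholangiocyte markers summed to 158.3 CPM, against 100.4 to 108.1 CPM in the other HKO livers and 80.1 to 95.6 CPM in WT livers, a sum to which Sorbs2 gave the largest share on average. Chance flags about 1 in 20 groups, and 3 of the 50 groups checked were found. The same liver had the highest Spp1, at 63.0 CPM.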

How the results depend on the processing

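The number of members called lower, 1 as reported, was 2 with DESeq2, 2 with total count scaling, 0 when at least 10 counts were required in every liver, since Gpnmb was then not tested, and 1 to 2 with 1 liver left out, 2 being without WT replicate 4. The second gene was Ctsd each time. Gpnmb was called in all 15 alternatives that tested it. Genes called over all genes, 638 as reported, numbered 1014 with DESeq2, 371 with a fold change above 1.5, and 222 to 599 with 1 liver left out, with 222 without WT replicate 2, 293 without WT replicate 1 and 369 without HKO replicate 4. In the companion, macrophage and lysosome lists together, 6 genes were called lower, and 3 to 7 with 1 liver left out, 3 being without WT replicate 2. Higher calls there, 0 as reported, were 1 with DESeq2, 1 without the filter, and 0 to 1 with 1 liver left out, 1 being without HKO replicate 1. Over all genes tested, 1.71% were called higher by edgeR and 3.11% by DESeq2.

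The log2 fold change of Spp1 changed sign: it was -0.10 with limma-voom, -0.070 with total count scaling, -0.0013 with at least 10 counts in every liver, -0.10 with the replicate block, and -0.37 to 0.17 with 1 liver left out. That of Lpl was -0.42 to 0.10 with 1 liver left out. Total count scaling left the other directions in place. Members without overlap numbered 2, and 3 without HKO replicate 2, the third being Cd63. With fewer livers a lack of overlap is more easily met. Its share over all genes was not computed without that liver, so the count of 3 is a description only. With the replicate block 470 genes were called. The correlations of same-numbered livers, -0.062, 0.012, -0.085 and -0.148, gave no sign that the numbers pair the mice. The causes of these changes were not tested. Depth limits Trem2, Itgax and the HKO level of Gpnmb.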

Other observations

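Hepatocyte markers were called only in the direction of higher levels in HKO livers among the 10 that were tested. Of these, 5 were called higher and 0 lower by edgeR: Cps1, Tat and Ass1, of the urea cycle and of tyrosine breakdown, and Serpina1a and Hnf4a, named after the values were seen. Cps1 was at 2432 ± 638 CPM (SD, n = 4) in the WT group and 5813 ± 843 CPM in the HKO group, a log2 fold change of 1.26. Without HKO replicate 2, 3 of the 10 were called higher. With all livers, edgeR called 1.71% of all genes tested higher and 3.44% lower. Stellate and endothelial cell markers (12 tested), neutrophil and lymphocyte markers (4 tested) and cholangiocyte markers (4 tested) gave 0 calls with edgeR. At an unadjusted p under 0.05 these lists held 0, 1 and 0 genes, and DESeq2 called 0, 1 and 0 of them.

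Macrophage elastase, Mmp12, a companion gene chosen after its values were seen, was at 3.80, 1.88, 4.17 and 2.63 CPM in WT replicates 1 to 4 and at 2.22, 0.539, 0.844 and 0.425 CPM in HKO replicates 1 to 4. Its log2 fold change of -1.60 ± 0.46 (SE) did not pass (edgeR adjusted p = 0.0773).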
